A study of Mus musculus with 5 samples.

Results

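The cytosolic ribosomal protein genes encode the protein components of the large (Rpl) and small (Rps) subunits of the ribosome that translates nuclear mRNA. They were taken as every row of the count matrices whose symbol starts with Rpl or Rps followed by a digit or a p, leaving out 9 rows with -ps in the symbol and the 10 Rps6k kinase genes. This gave 85 of 31053 genes: 52 large-subunit symbols, 32 small-subunit symbols and Rps19bp1, which matches the rule but encodes a protein that binds Rps19 and is not itself a subunit. The rule misses genes of ribosomal proteins that carry other symbols, such as Rpsa and Fau, and Rack1, a protein bound to the small subunit. Of the 85, Rpl10l had no UMI in any library, 3 members in all were under 1000 UMIs over the 5 libraries, and 77 were at or above 100 CPM (UMIs of the gene per 1000000 UMIs of the library) in every library. The members lie on 19 chromosomes, 4 of them on X.

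Single-cell RNA was measured with 10x 3′ v3 chemistry in mouse bone marrow (BM) after cyclophosphamide (CTX), an alkylating chemotherapy drug. Whole BM cells, labelled CD45+, came from untreated (naive) mice and from mice given 150 mg/kg CTX intraperitoneally, collected at day 2 for the D2 CTX library and at day 7 for D7 CTX. The CD11b+Ly6Chi monocytes were sorted from BM of naive and CTX-treated mice. The study used young BALB/c mice of both sexes, and its methods place the sorted CTX cells at day 7, which their labels do not state. Each condition was 1 library, and the whole BM libraries mixed cells of 3 mice in equal numbers (the pool of each sorted library is not labelled), so no difference between conditions could be set against the spread between mice. Intervals below are exact 95% intervals that cover counting error only.

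Ribosomal proteins are made in near equal numbers because each ribosome holds a single copy of most of them, and their mRNAs are among the most abundant in growing cells. Most of these mRNAs start with a 5′ terminal oligopyrimidine (TOP) tract, a C followed by a run of C and T, through which mTOR signalling controls their translation. In bone marrow, blood progenitors make proteins and ribosomes at a high rate, and neutrophils stop making ribosomes while they mature and fill with granule proteins. Some ribosomal proteins have paralogs with expression of their own, such as Rps27l, a known target of p53, the transcription factor that responds to DNA damage.

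The windows below show 40 bases around the annotated start, 20 before it and 20 from it, from RefSeq on GRCm38.p6. They are those of Rps6, as an example of a tract, and of some members that the results return to. Capitals mark the motif CTTTC, the motif CTTTT, the motif CTCTT or the motif CTTCC on the strand of the gene, and matches may overlap each other.
Rps6 (chr4:86857348-86857387, minus strand): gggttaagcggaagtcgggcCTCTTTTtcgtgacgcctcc
Rpl35 (chr2:39005112-39005151, minus strand): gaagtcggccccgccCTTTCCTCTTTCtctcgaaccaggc
Rps9 (chr7:3704021-3704060, plus strand): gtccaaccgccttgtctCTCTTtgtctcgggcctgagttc
Rps27 (chr3:90213629-90213668, minus strand): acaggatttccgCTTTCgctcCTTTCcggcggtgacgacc
Rps27l (chr9:66946066-66946105, plus strand): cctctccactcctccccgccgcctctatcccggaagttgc
Rpl36al (chr12:69184048-69184087, minus strand): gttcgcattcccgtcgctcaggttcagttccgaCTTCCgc
The tract of Rps6 begins at the annotated start, that of Rpl35 spans it, Rps27 has matches before and just after it, and the window of its paralog Rps27l holds none of the 4 motifs. Among windows not shown, those of Rpl27, Rplp0, Rps19 and Rpl22 hold none of them either, while those of Rpl22l1, Rplp2 and Rpl28 do. RefSeq promoters were matched for 65 of the 85 members, 77 promoters in all, of which 37 (48.1%) held at least 1 of the 4 motifs in this window. The share was 20.4% over all 32851 promoters of the table, 28% for mitochondrial ribosomal proteins and 22.6% for genes of ribosome biogenesis. It was 58.3% for other translation genes with a TOP tract (7 of 12 promoters) and 66.7% for ribosomal genes that the rule leaves out (2 of 3). These motifs were thus not particular to the members either. CCGGAAG, the core of a site for ETS factors, was searched on both strands of the 300 bases from 250 before to 50 from the start. It was found in 33.8% of the members' promoters and 8.86% of all. Promoters of mitochondrial ribosomal proteins had it in 34.7%, those of ribosome biogenesis genes in 22.6% and those of other translation genes with a TOP tract in 25%. It was thus not particular to the members. These are matches of letters, and a start annotated a few bases off moves them into or out of the window.

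The members took 16.8% of all UMIs of the kept cells in naive BM, 14.8% in D2 CTX, 9.99% in D7 CTX, 18.9% in sorted naive monocytes and 19.6% in sorted CTX monocytes. Kept cells were 7104, 6126, 8290, 1891 and 2564, with median depths between 3033.5 and 10299 UMIs. The libraries shared between 2 and 16 barcodes per pair. The counting intervals of these shares were below 0.05 percentage points wide, so the 5 shares differ by more than counting error. Per cell, the share was spread over separate ranges in whole BM and over a single range in the sorted libraries, as the plot of shares per cell shows. In naive BM 43.2% of cells were below 8%, and these were mostly neutrophils: 95.8% of cells in the neutrophil gates were below 8% against 8.84% of the other cells. Of the sorted cells, 2.59% (naive) and 3.43% (CTX) were below 8%, beside 1.53% and 2.03% of cells in the neutrophil gates. The monocyte gates held 94.4% and 91.2% of the sorted cells.

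**Figure D1:**
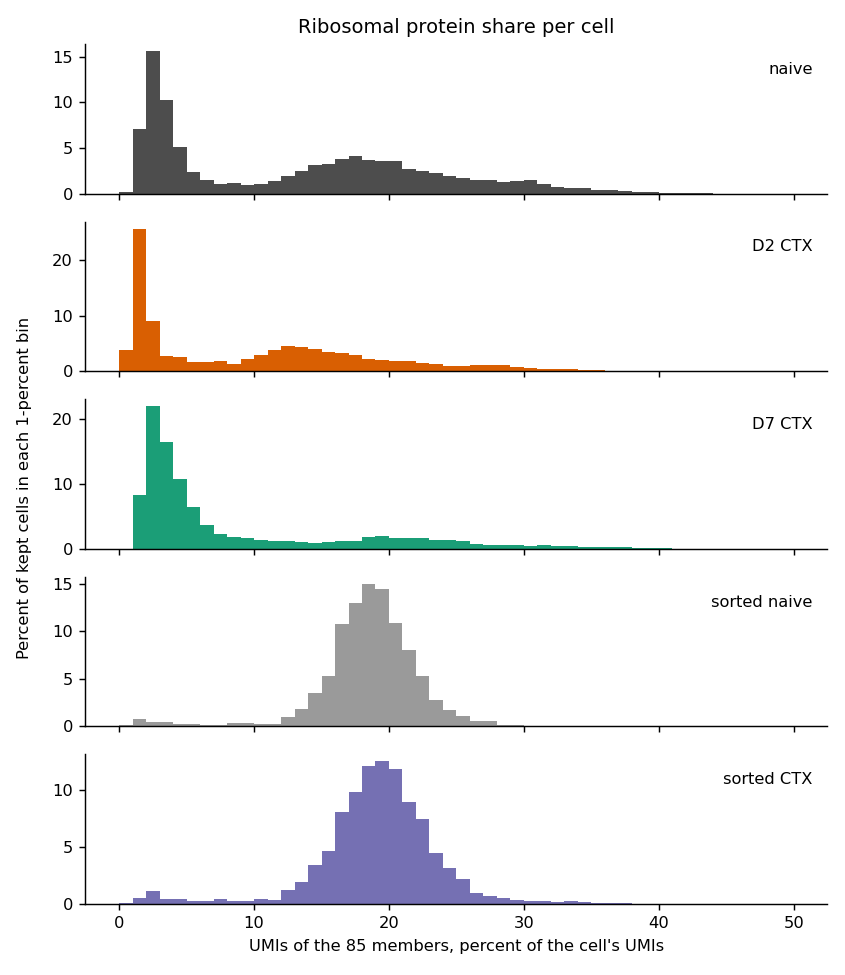
Share of each kept cell's UMIs that belong to the 85 members, in bins of 1 percentage point, with the percent of cells of each library on the y axis. Whole BM libraries have a group of cells below 8% (43.2%, 48.5% and 69.4% of cells in naive, D2 CTX and D7 CTX) and a broad group above it, and sorted monocytes have a single main group with medians of 18.7% and 19.3%.

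Cells were assigned to classes with marker genes that hold no member, such as Mpo, Elane, Prtn3 and Ctsg for GMP and Camp, Ngp and Ltf for pre-neutrophils. Kit+ progenitors were cells with Kit, Cd34, Cdk6 or Adgrg1 UMIs that passed no other gate. In naive BM the share fell from progenitors to mature neutrophils. It was 31.8% in Kit+ progenitors, 30.6% in cells with granulocyte-monocyte progenitor (GMP) genes, 5.94% in cycling pre-neutrophils, 4.55% in other pre-neutrophils, 2.73% in immature and 2.44% in mature neutrophils. Monocytes were at 20.4%, cycling monocytes at 20.1%, plasmacytoid dendritic cells (pDC) at 20.3%, B lineage cells at 19.3%, cycling B lineage cells at 23.8%, NK cells at 23.4% and T cells at 28.9%. Neighbours in the middle of this order, pDC and cycling monocytes among them, lay within each other's per-cell quartiles, and those quartiles were wide in lymphoid cells (20.4% to 33.9% in T cells).

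The low share of neutrophils goes together with a few abundant granule and alarmin mRNAs. The 20 most abundant genes that are no members took 53.4% of the UMIs of mature neutrophils and 10.6% of those of Kit+ progenitors in naive BM. Without those 20 genes of each class, the members made up 5.24% of the UMIs of mature neutrophils, 13.4% of those of cycling pre-neutrophils, 24.1% of those of monocytes and 35.6% of those of Kit+ progenitors, while GMP reached 37.8% and stood above Kit+ progenitors. Median depths were 2410 UMIs in mature neutrophils and 12106 in Kit+ progenitors. Fewer ribosomal protein mRNAs per cell and more of other mRNAs cannot be told apart in a share, and how many of the UMIs in neutrophils were free RNA was not tested.

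**Figure D2:**
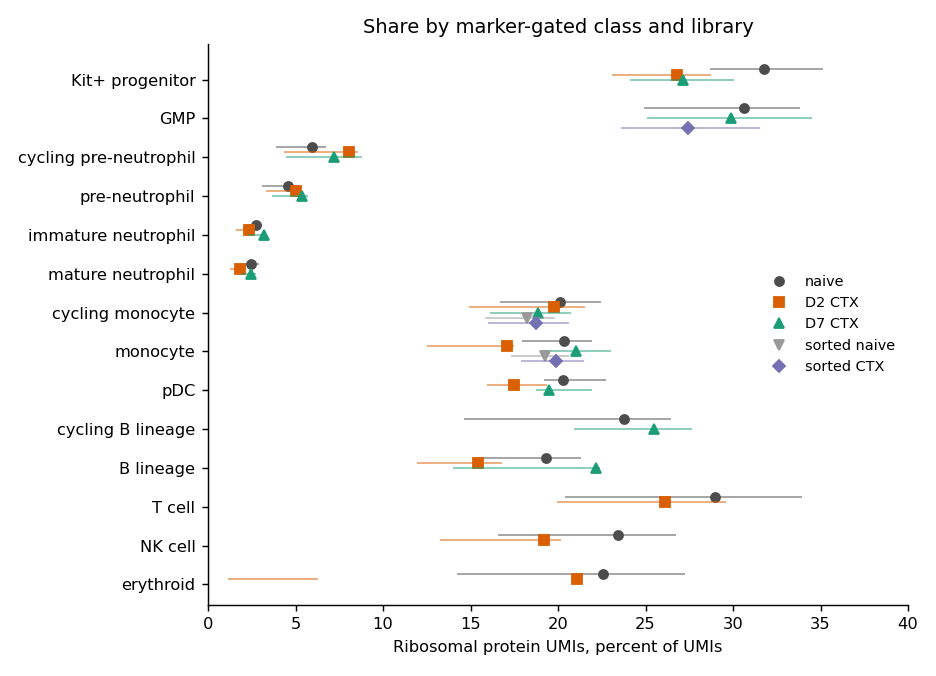
Ribosomal protein UMIs as percent of UMIs (x axis) in marker-gated classes with at least 50 cells, by library, leaving out macrophages and basophils. Points are shares over the summed cells and lines run from the lower to the upper quartile of the per-cell share; the neutrophil classes stand at or below 8.07%, and D2 CTX squares lie left of the naive circles in 10 of 12 classes.

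Both subunits followed this pattern. The ratio of large-subunit to small-subunit UMIs ranged from 0.768 to 1.23 over the 39 sums of a class in a whole BM library. The other gene groups were measured beside the members in naive BM as the ratio of their share in Kit+ progenitors to that in mature neutrophils. It was 13.03 for the members, 12.5 for 14 translation genes with a TOP tract (Eef1a1, an elongation factor, and Tpt1 among them), 21.1 for 31 genes of ribosome biogenesis such as Npm1 and Ncl, and 4.33 for 78 mitochondrial ribosomal proteins. Against monocytes rather than progenitors, these ratios were 8.35, 9.82, 5.30 and 2.97.

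The class difference was the only one that the design repeats, because monocytes, B lineage cells and neutrophils each gave a sum in all 3 whole BM libraries. In edgeR's quasi-likelihood test with library as a block, 80 of 83 members tested were lower in neutrophils (immature and mature together) than in monocytes at an adjusted p under 0.05, and 1 was higher. Over all 10761 genes, 35.1% were lower and 32.3% higher. The median member was at -1.94 on the log2 scale, beside -0.08 for the median gene. All 14 TOP translation genes tested were lower as well (Eef1a1 at -2.53, SE 0.19, adjusted p 1.5e-07), as were 27 of 31 biogenesis genes and 57 of 77 mitochondrial ribosomal proteins tested. The spread in these tests includes the treatment, and the same 3 libraries give both sides.

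Between B lineage cells and monocytes the members were closer. Here 30 of 83 were lower in B lineage cells and 1 was higher, against 25.4% lower and 24.2% higher of all genes tested. This lean depends on the scaling: 7 were lower and 7 higher with total UMIs and no TMM, and 47 lower and 0 higher with DESeq2. The median member was at -0.41. Of the 30 lower members 15 remained in number without the D2 CTX library and 4 without the naive library, so this count rests on those libraries. Of the TOP translation genes 7 of 14 were lower, while 10 of 31 biogenesis genes were higher, among them Ncl (nucleolin, 1.06, SE 0.23) and Nop56 (a core protein of box C/D snoRNPs, 1.11, SE 0.20), and 1 was lower.

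To see which members depart from the family, the same sums were fitted with the summed UMIs of the members as library size, a scale on which 0 means a fixed share of the family. On this scale 11 members were higher and 28 lower in neutrophils than in monocytes, with 66.1% of all genes higher and 10% lower. Rps27a, which encodes a fusion of ubiquitin and a small-subunit protein, made up 6.83%, 6.80% and 5.94% of member UMIs in neutrophils of naive, D2 CTX and D7 CTX and 2.69%, 2.69% and 2.33% in monocytes. Neutrophils were thus higher in each library, by 1.34 on the relative log2 scale (SE 0.17, edgeR adjusted p 2.2e-05). Rps9, of the small subunit, took 6.12%, 9.02% and 5.17% in neutrophils and 2.52%, 2.86% and 2.58% in monocytes (1.32, SE 0.19). Rpl7l1, the paralog of Rpl7, was also higher (1.18, SE 0.18), as were Rpl37 (0.73) and Rpl3l (4.997, SE 0.45).

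Rpl3l, a paralog of Rpl3 known from muscle, was the member with the largest relative value and among the rarest. It had 3, 6 and 11 UMIs in monocytes and 52, 57 and 147 in mature neutrophils of naive, D2 CTX and D7 CTX, so that it was higher in neutrophils of each library but reached at most 22.6 CPM. It was also the member called higher in B lineage cells, at 43, 23 and 8 UMIs, but the libraries disagreed. Its level was 11.3 CPM in B lineage cells and 1.34 in monocytes of naive BM and 21.5 against 2.99 in D7 CTX, while D2 CTX went the other way with 5.12 against 7.498.

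The members most reduced within the family in neutrophils were of the large subunit. Rpl10a made up 0.358%, 0.287% and 0.398% of member UMIs in neutrophils and 0.975%, 0.903% and 1.10% in monocytes (-1.52, SE 0.17, edgeR adjusted p 5.4e-06). Rpl36al followed at -1.45 (SE 0.16), then Rpl3 at -1.42 (SE 0.21), Rpl10 at -1.06 (SE 0.17) and Rpl32 at -1.01 (SE 0.17). Without the naive library the counts relative to the family were 4 higher and 16 lower.

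In B lineage cells 6 members were higher and 5 lower than in monocytes relative to the family, against 36.5% and 17.7% of all genes. Rpl12 was higher (0.73, SE 0.18, edgeR adjusted p 0.0056), with 0.957%, 1.15% and 1.15% of member UMIs in B lineage cells against 0.617%, 0.666% and 0.670% in monocytes. Rpl13a (0.66), Rps27 (0.62) and Rps3a1 (0.61) were higher too. Rplp0, the stalk protein of the large subunit, was lower (-0.72, SE 0.19), with 1.21%, 0.922% and 1.503% in B lineage cells against 1.93%, 1.49% and 2.66% in monocytes, and the ranges of the classes overlapped although each library gave the same direction. Rps27l (-0.61) and Rpl10 (-0.60) were lower as well. Without the naive library edgeR called 0 members in either direction, with 2 higher and 1 lower of 83 at an unadjusted p under 0.05. With all 3 libraries, DESeq2 called 10 higher and 6 lower.

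**Figure D3:**
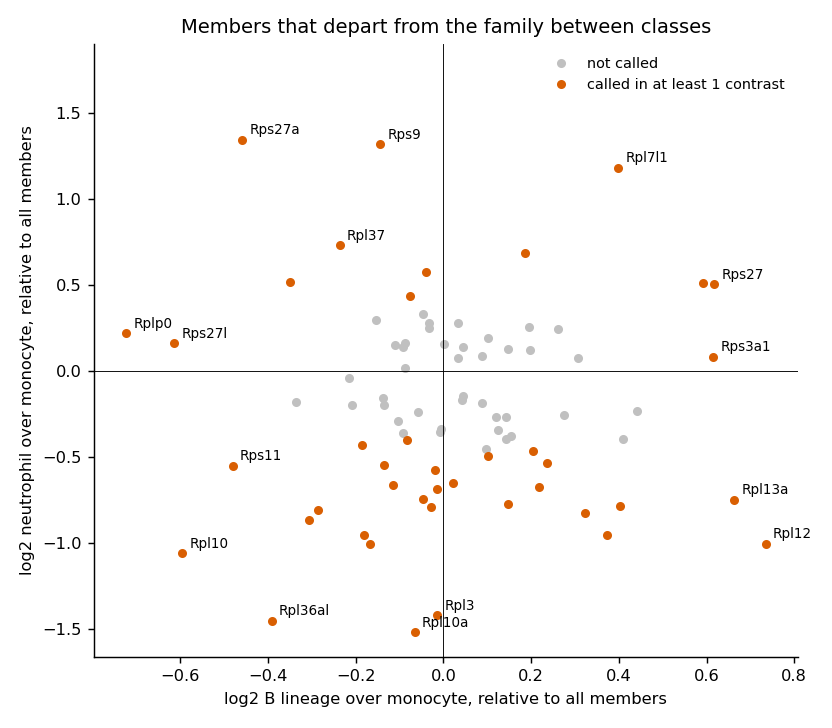
Each point is a member, placed by its log2 difference of B lineage over monocyte (x axis) and neutrophil over monocyte (y axis), both relative to the summed UMIs of the members; orange marks an edgeR adjusted p under 0.05 in at least 1 contrast, both contrasts share the monocyte sums, and Rpl3l (4.997 on the y axis) lies outside. Rps27a and Rps9 stand highest and Rpl10a, Rpl36al and Rpl3 lowest on the neutrophil axis.

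On day 2 the share was lower than in naive BM in 10 of 12 classes. It went from 31.8% to 26.8% in Kit+ progenitors, from 20.4% to 17.1% in monocytes, from 19.3% to 15.4% in B lineage cells, from 23.4% to 19.2% in NK cells, from 28.9% to 26.1% in T cells and from 20.3% to 17.5% in pDC. Mature neutrophils had the largest drop on the log2 scale, -0.42 (2.44% to 1.83%). Cycling monocytes moved least (20.1% to 19.8%). The erythroid gate held 52 cells on day 2 whose median share was 1.84% although their summed share was 21.1%, so most of its cells carried few member UMIs. Cycling pre-neutrophils went the other way, from 5.94% to 8.07% (0.44), and pre-neutrophils from 4.55% to 5.03%. Without the 20 most abundant other genes of each class, pre-neutrophils turned from higher to lower (11.3% to 10.53%), and cycling pre-neutrophils remained higher (13.4% to 15.5%).

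Mitochondrial UMIs rose on day 2 in classes whose member share fell. They were 4.98% and 5.88% of UMIs in Kit+ progenitors, 4.26% and 5.15% in monocytes and 5.76% and 6.52% in B lineage cells of naive and D2 CTX. Median depths were close in monocytes (5603 and 5738) and B lineage cells (2421 and 2490), and Kit+ progenitors were deeper on day 2 (26952 against 12106). Among D2 CTX monocytes the median share per cell was 17.2% in cells above the median depth and 13.3% in those below it. The part of depth and mitochondrial RNA in the difference was not tested. Only 49 cells of D2 CTX passed the GMP gate, below the 50 set for a class.

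The day 2 and day 7 libraries differed in where their lower share came from. If D2 CTX had the naive mix of classes, its own class levels would give 15.2%, near its measured 14.8%, and naive class levels with the D2 CTX mix would give 17.1%. For D7 CTX, its own class levels with the naive mix would give 16.9%, as in naive BM, and naive levels with the D7 CTX mix 9.50%, near the measured 9.99%. Neutrophil gates held 31.3% of UMIs in naive BM, 33.5% in D2 CTX and 70.9% in D7 CTX. On day 7 the share within classes was lower than naive in 4 of 11 classes and higher in 6: it was 27.2% in Kit+ progenitors, 29.9% in GMP, 21.01% in monocytes, 22.1% in B lineage cells, 7.22% in cycling pre-neutrophils and 5.39% in pre-neutrophils. Mature neutrophils had 2.44% on both occasions. GMP, among the 4 lower classes (30.6% to 29.9%), became higher without the 20 most abundant other genes of the class (37.8% to 38.7%).

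Gene by gene, the members were compared by the size of their ratio, first for D2 CTX over naive. A member was counted when its CPM differed by at least 0.5 on the log2 scale with 1 CPM added. In monocytes 10 of 80 members tested were lower on day 2 and 2 were higher. Over all 2329 genes tested 12.7% were lower and 15.7% higher, so the share of members lower was that of the background. Their median was -0.31. In B lineage cells 18 of 82 were lower and 1 higher against 6.33% and 13.1% of all genes, with a median of -0.35. In Kit+ progenitors 8 of 82 were lower and 2 higher against 5.72% and 17.3%, with a median of -0.25 where the median gene was at 0.12.

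In mature neutrophils 45 of 76 members were at least 0.5 lower on day 2 and 1 was higher, against 4.16% and 34.9% of all genes. The median member was at -0.54 and the median gene at 0.35. Relative to the median gene 68 members were lower, but the shares of all genes above do not apply to that scale, and none is given for it. In cycling pre-neutrophils 26 of 80 were higher and 2 lower, against 27.4% and 7.91% of all genes, so the share of members higher was near the background; the median was 0.42 with the median gene at 0.20. The highest there were Rps27l (1.59), Rps19 (1.53, 564 to 1625 CPM), Rpl10 (1.32), Rpl35 (1.28) and Rps9 (0.93).

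The other gene groups moved with the members in some classes. The median of the TOP translation genes on day 2 was -0.28 in monocytes, -0.33 in B lineage cells and 0.47 in cycling pre-neutrophils, where 7 of 14 were higher. Mitochondrial ribosomal proteins had medians of -0.31 in monocytes, -0.30 in B lineage cells and -0.31 in cycling pre-neutrophils. Genes of ribosome biogenesis were at 0.16, 0.04 and 0.07.

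**Figure D4:**
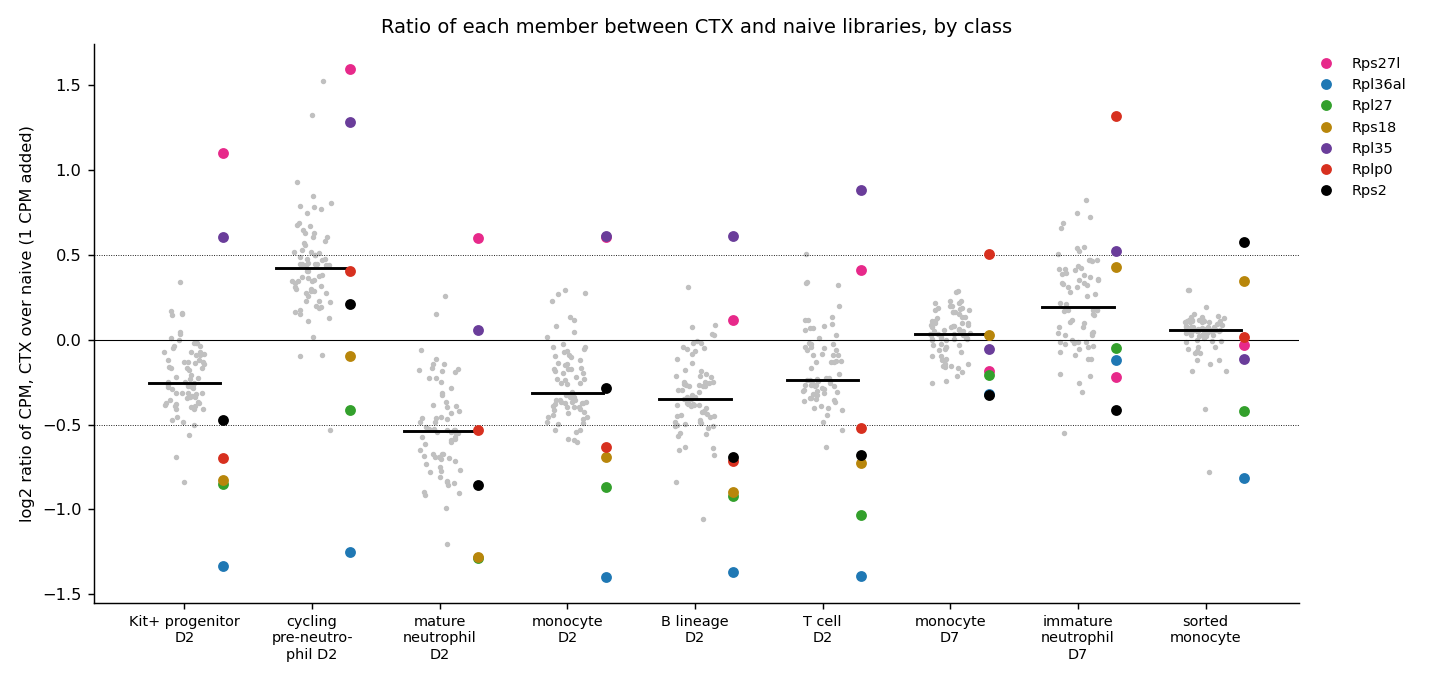
Each grey point is a member that passed the filter, with its log2 ratio of CPM (1 CPM added) between the CTX library and the naive library on the y axis, by class; black bars are medians, dotted lines mark 0.5 and -0.5, and 7 named members are drawn in color. Rpl36al lies lowest in Kit+ progenitors, monocytes, B lineage cells and T cells on day 2, and Rps27l is highest in Kit+ progenitors and cycling pre-neutrophils.

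Some members shifted on day 2 in nearly every class. Outside the neutrophil gates, 541 genes could be compared in each of 7 classes, 78 of them members. Only 2 genes (0.37%) were at least 0.5 lower in all 7, Rpl36al and Rpl27, and both are members. Another 5 (0.924%) were at least 0.5 higher in all 7, among them the member Rpl35 and Gm10260, a copy of Rps18. Rpl35 was also 1.31 higher in monocytes of the sorted than of the whole naive library, both untreated. The copies of Rps18 were at 1147 and 269.3 CPM there. Rpl36al (-0.26) and Rpl27 (0.20) differed less between these libraries. The 7 classes were put together after the values had been seen, and they share the naive and the D2 CTX library.

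Rpl36al (chr12:69182731-69184083, minus strand, GENCODE M21 on GRCm38) is a paralog of the X-linked Rpl36a and encodes a large-subunit protein. It was at 710 CPM in monocytes of naive BM and 268.7 on day 2, at 638 and 253 in Kit+ progenitors, at 486 and 187 in B lineage cells and at 558 and 212 in T cells. Its log2 ratios lay between -1.15 in cycling monocytes and -1.40 in monocytes in those 7 classes. Of the UMIs of Rpl36a and Rpl36al together, Rpl36al held 42.5% in naive monocytes (40.9% to 44.1%), 23.7% on day 2 (20.99% to 26.6%) and 35.4% on day 7. In B lineage cells it held 32.1%, 15.5% and 24.9%. It was the lowest member in sorted monocytes as well: 594 CPM in naive and 337 in CTX.

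Rpl27 (chr11:101442298-101445529, plus strand) fell from 556 to 304 CPM in monocytes, from 921 to 451 in T cells and from 641 to 338 in B lineage cells between the naive and the D2 CTX library. Rpl35 (chr2:39001580-39005624, minus strand) went from 856 to 1306 CPM in monocytes, from 784 to 1196 in B lineage cells and from 973 to 1793 in T cells. Both encode large-subunit proteins.

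Rps18 (chr17:33951999-33956001, minus strand), of the small subunit, was lower on day 2 in monocytes (1231 to 762 CPM) and B lineage cells (931 to 500 CPM). The gene Gm10260 (chr13:97760072-97760632, minus strand), named in RefSeq as the copy Rps18-ps6 and left out by the rule, moved the other way. With the other Rps18 copies it was at 269.3 and 639 CPM in monocytes and at 207 and 393 in B lineage cells. The copies also differed between libraries of untreated mice. In monocytes of the sorted naive library they were at 1147 CPM and Rps18 at 958, so the day 2 difference cannot be told apart from a difference between libraries. The sum of Rps18 and its copies changed by -0.10 in monocytes, where Rps18 alone changed by -0.69, by -0.35 in B lineage cells (Rps18 alone -0.90) and by -0.15 in T cells (-0.73). Reads of near-identical copies cannot be told apart here with certainty, so the value of Rps18 alone is uncertain. The 12 rows that RefSeq names as copies of a member held as many UMIs as 0.370% of those of the members, and the copy of Rpl27 changed its ratio little (-0.92 alone and -0.91 with its copies in B lineage cells).

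Rps27l (chr9:66946086-66949516, plus strand), the paralog of Rps27, was higher on day 2 in progenitors and myeloid cells. It was at 584 CPM in Kit+ progenitors of naive BM and 1254 on day 2 (1.10 on the log2 scale, 1.02 to 1.19), at 143 and 434 in cycling pre-neutrophils (1.59, 1.47 to 1.73) and at 91 and 268 in pre-neutrophils (1.55). Cycling monocytes had 489 and 887 CPM, monocytes 336 and 511 (0.60, 0.43 to 0.78) and mature neutrophils 38 and 58. Among lymphoid cells, B lineage cells had 197 and 214 CPM (0.12, -0.02 to 0.26), NK cells 373 and 422 (0.18, -0.12 to 0.47) and T cells 192 and 255 (0.41, 0.04 to 0.80). The T cell interval lay above 0 and overlapped that of monocytes. The counting intervals of Kit+ progenitors, cycling pre-neutrophils and monocytes did not overlap that of B lineage cells, and no test over mice was possible.

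As a share of Rps27 and Rps27l together, which does not depend on the total, Rps27l rose from 16.9% (16.01% to 17.7%) to 28.1% (27.6% to 28.7%) of UMIs in Kit+ progenitors, from 20.3% to 30.9% in cycling pre-neutrophils and from 21.3% to 28.8% in cycling monocytes on day 2. It was 4.73% and 4.83% in B lineage cells, 2.98% and 3.15% in T cells and 8.63% and 8.74% in pDC. In NK cells it was lower on day 2 (11.1% and 8.15%). Rps27 itself rose on day 2, from 2982 to 4755 CPM in NK cells, 6237 to 7850 in T cells and 3967 to 4208 in B lineage cells. It also rose in pDC (3204 to 3959) and monocytes (2492 to 3009). A flat or lower share in lymphoid cells is thus not a lower level of Rps27l. Between monocytes of the sorted and of the whole naive library, both untreated, Rps27 also differed by 0.50 on the log2 scale and Rps27l by 0.02. The rise of Rps27, and its part in these shares, cannot be told apart from a difference between libraries. On day 7 the share of Rps27l was back at 15.1%, 19.7% and 20.6% in those progenitor and cycling classes. Over the 39 class and library sums, the members whose log2 CPM followed Rps27l most closely were Rpl35 (Pearson r 0.931), Rpl29 (0.920) and Rpl7a (0.908), sums that share libraries and the common difference between classes.

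Rpl22l1, the paralog of Rpl22, shared the pair differently by day. In cycling pre-neutrophils it held 34.9% of the pair's UMIs in naive BM (33.2% to 36.6%), 43.8% on day 2 (42.1% to 45.6%) and 17.7% on day 7 (17.1% to 18.4%), and in other pre-neutrophils 31.3%, 34.0% and 16.6%. In monocytes the values were closer, 21.9%, 24.2% and 19.4%. Day 7 was thus the lowest in each of these 3 classes. Other classes differed. On day 7 over naive, Rpl22l1 was at -0.51 and Rpl22 at 0.10 on the log2 scale in GMP. In B lineage cells Rpl22l1 was at 0.65 and Rpl22 at 0.10, and in pDC at 0.01 and -0.10, so the share of Rpl22l1 was higher on day 7 there. Rpl3l held 14.9%, 17.5% and 24.5% of the UMIs of Rpl3 and Rpl3l in mature neutrophils of naive, D2 CTX and D7 CTX, and at most 0.504% in monocytes. Rpl7l1 held 5.11%, 6.06% and 8.16% of its pair in mature neutrophils. Rpl10l was at 0 and Rpl39l had at most 28 UMIs in a library.

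**Figure D5:**
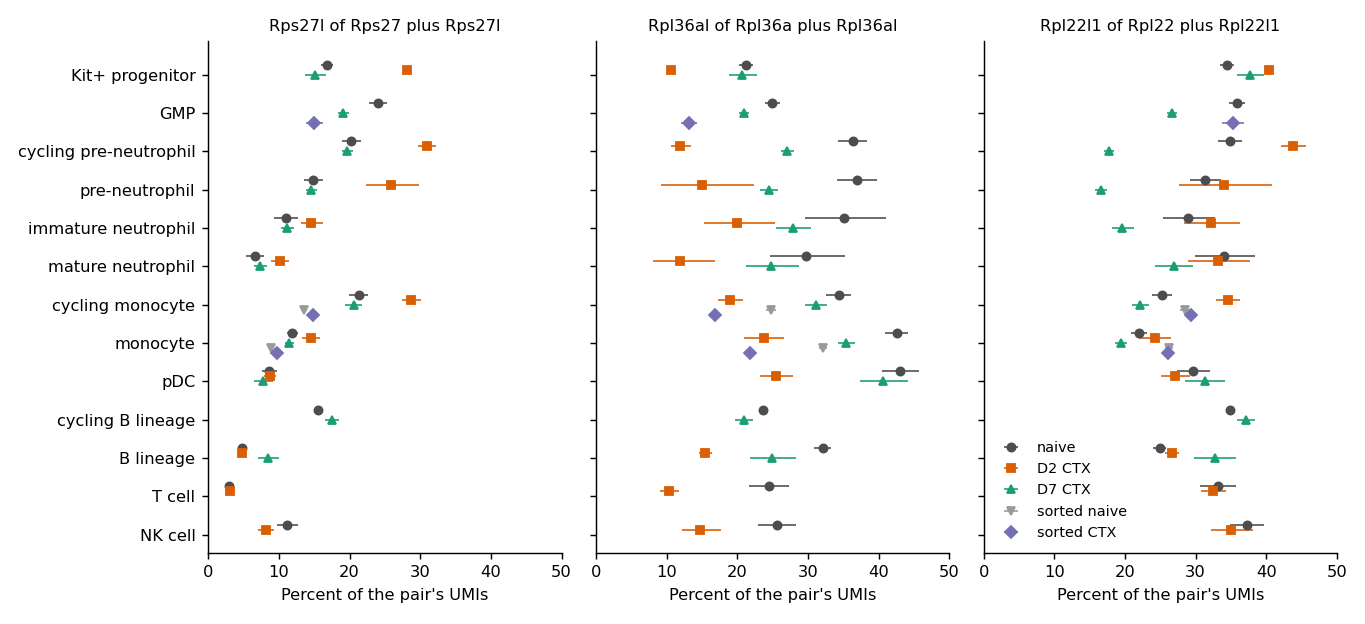
Share of the UMIs of a paralog pair that belongs to the second gene (x axis, percent), by class and library, with exact 95% intervals of counting error. The share of Rps27l is higher on day 2 in progenitors and myeloid classes and not in B lineage, T or NK cells. Rps27 itself rose in these lymphoid cells. The share of Rpl36al is lower on day 2 in every class, and that of Rpl22l1 is lowest on day 7 in the pre-neutrophil classes.

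On day 7 few members stood apart in monocytes. A single member, Rplp0, was at least 0.5 higher and none lower of 81 tested, against 2.01% and 3.28% of all genes. Rplp0 went from 3936 to 5580 CPM in monocytes (2542 on day 2), from 504 to 1256 in immature neutrophils (415 on day 2) and from 425 to 889 in mature neutrophils (294 on day 2), so it was lowest on day 2 and highest on day 7 in all 3. The sorted monocytes did not show this rise: outside cycle Rplp0 was at 4586 CPM in naive and 4631 in CTX, and in cycling cells at 4423 and 4340. Between naive and day 7, Rplp0 was higher in GMP (3572 to 5092 CPM) and lower in Kit+ progenitors (5599 to 4517 CPM). In immature neutrophils 11 of 78 members were higher and 1 lower on day 7, against 3.2% and 20.1% of all genes. After Rplp0 (1.32), high values were those of Rpl10a (0.82), Rps24 (0.75) and Rps4x (0.69), and the lower member was Rpl22l1 (-0.55).

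In sorted monocytes the share was 19.3% in naive and 19.9% in CTX for cells outside cycle, and 18.2% and 18.7% for cycling cells. Only 3 of 82 members differed by 0.5 or more: Rps2 was higher in CTX (781 to 1165 CPM) and Rpl36al and Rpl29 (430 to 250 CPM) were lower. In monocytes of whole BM Rps2 went the other way on day 7 (1104 to 881 CPM, -0.33). Over all 5389 genes 0.39% were higher and 3.02% lower. None of the 14 TOP translation genes and none of the 70 mitochondrial ribosomal proteins tested reached 0.5.

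Within the sorted libraries the share rose with the azurophil granule genes Mpo, Elane, Prtn3 and Ctsg, which mark the progenitor side of the neutrophil and monocyte lineages. In the naive library, cells below 2 UMIs of these genes per 10000 had 18.3% (939 cells), those from 10 to 40 had 19.98% (222 cells), those from 40 to 80 had 22.1% (52 cells) and those from 80 had 23.2% (27 cells). In the CTX library the values were 18.5% (971 cells), 20.1% (390 cells), 22.5% (108 cells) and 24.5% (61 cells). The cells from 80 were 1.49% of the naive and 2.54% of the CTX cells in these bins. Not all kept cells are in the bins, so these are not percentages of all kept cells. Cells of the sorted CTX library in the GMP gate, which uses the same genes from the same level of 80, had a share of 27.4%. Depth rose along the same order, from a median of 9028 to 19115 UMIs in naive and from 8286 to 17352 in CTX, and its part was not tested.

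Some members differed between libraries more than between conditions. Between monocytes of the sorted and of the whole naive library, both untreated, 4 of 82 members were at least 0.5 higher and 3 lower, against 7.44% and 13.3% of all genes. Rpl29 was at 94 CPM in whole BM and 430 in the sorted library (2.17). Rpl35 (1.31), Rpl13a (0.52) and Rps27 (0.50) were higher too, and Rps28 (-1.05), Rpl41 (-0.81) and Rps26 (-0.62) were lower. Rpl29, Rpl35 and Rps27 thus also differed by at least 0.5 between libraries of untreated mice, while Rpl36al was at -0.26. Whether the libraries were made or sequenced together is not given in the labels.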

How the data were processed

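The authors sequenced 10x Genomics 3′ v3 libraries and deposited raw UMI counts for each gene in each barcode, with no normalization. The submitters' processing notes name Cell Ranger 3.1, Seurat 5.0 and mm10, and the barcodes deposited per library are fewer than the cells the study counts. UMIs count molecules at the 3′ end, so CPM were not scaled by gene length and levels are compared within a gene. A barcode was kept if it had 200 or more detected genes and a mitochondrial part under 20% of its UMIs. Totals were 22694817 to 68459527 UMIs per library.

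Cells were gated by summed UMIs of marker genes per 10000 UMIs, with at least 3 marker UMIs, and the levels of the gates were set after the data had been seen. No doublet caller was run, and cells that passed more than 1 gate (448 in naive, 293 in D2 CTX, 427 in D7 CTX) were left out of the classes. Classes below 50 cells were not used. Shares have Clopper-Pearson intervals, and log2 ratios exact conditional ones. Genes with at least 200 UMIs over both libraries and 20 CPM in at least 1 were compared, with 1 CPM added. Class sums were tested with edgeR 4.0.16 in R 4.3.3 (quasi-likelihood, TMM, Benjamini-Hochberg over all genes tested, threshold 0.05), and DESeq2 1.42.0 was an alternative. Steps across genes were tested on simulated data. Python 3.11.15, numpy 2.4.6, scipy 1.17.1 and pandas 2.3.3 were used.

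The members, the gene lists and the tests were chosen with earlier results of these data known. Named were, per comparison of libraries, the members called, up to the 5 highest and 5 lowest relative to the median member, paralog pairs, and per class contrast up to 5 members each way called relative to the family; Rps18 with its copies and the members shifted in 7 classes were added after their values were seen. Gas5 of the TOP list and Rps4l of the paralog pairs have no row. Some genes that the rule for named genes would include are not reported here.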

Additional observations from a re-analysis of the deposited data

Results flagged for a closer look

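Some classes moved against most others in the share of UMIs taken by ribosomal protein genes. These differences between classes were not tested, since each condition was 1 library. On day 2, where 10 of 12 classes had a lower share than in naive BM, cycling pre-neutrophils were higher by 0.44 on the log2 scale and pre-neutrophils by 0.14. Median depth in cycling pre-neutrophils was 15788 UMIs on day 2 and 11797.5 in naive BM, and its part was not tested. On day 7, where 6 of 11 classes had a higher share, Kit+ progenitors were at -0.23, cycling monocytes at -0.0927, pDC at -0.0603 and GMP at -0.0363. Without the 20 most abundant other genes of the class, GMP turned higher on day 7 (37.8% to 38.7%) and pre-neutrophils turned lower on day 2 (11.3% to 10.53%).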

How the results depend on the processing

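Of 130 alternatives over 30 results 56 moved. None was labelled reversed, but counts of members in a fixed direction, as in the class contrasts, could not be, so this says nothing about them. The share of pre-neutrophils on day 2 and of GMP on day 7, which were outside these alternatives, reversed without the 20 most abundant other genes of the class. On the log2 scale the library share of D2 CTX over naive (-0.18) was -0.18 without a filter on cells and with a strict one, -0.21 without the 20 most abundant other genes, -0.17 without mitochondrial UMIs, -0.54 for the median cell and -0.19 with Rpsa, Fau and the like added to the members. That of D7 CTX (-0.75) was, in this order, -0.73, -0.76, -0.30, -0.76, -1.64 and -0.72. For sorted CTX over sorted naive (0.05), it was 0.0575 with the strict filter, 0.0588 without the 20 genes, 0.0502 for the median cell and 0.0487 with the added genes. Within classes on day 2, the share without the 20 genes and for the median cell was -0.23 and -0.26 in Kit+ progenitors, -0.60 and -0.56 in mature neutrophils, -0.24 and -0.38 in monocytes and -0.28 and -0.36 in B lineage cells, and 0.0411 and 0.0586 in sorted monocytes.

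At a threshold of 1 on the log2 scale, 0 members were higher and 3 lower in mature neutrophils on day 2, 0 and 1 in monocytes, 0 and 2 in B lineage cells, and 0 and 0 in sorted monocytes. Scaled by the median gene, mature neutrophils had 0 higher and 68 lower and B lineage cells 31 lower, and with a minimum of 20 UMIs mature neutrophils had 2 higher. The share of all genes called is not given for these settings.

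For B lineage cells over monocytes, DESeq2 called 0 members higher and 47 lower, total UMIs without TMM 7 and 7, and no filter on low counts 14 lower. Relative to the family, DESeq2 called 10 higher and no filter 3 lower. Leaving out 1 library gave 0 to 1 higher and 4 to 30 lower, relative to the family 0 to 6 and 0 to 4, and for neutrophils 1 higher and 79 to 81 lower, relative to the family 4 to 10 and 16 to 26. The causes were not tested. Shares without the 20 genes of each class itself, sums with copies, the members shifted in 7 classes, the sorted against the whole naive library and the levels of azurophil genes were added after the data had been seen. No paired analysis was possible because each condition was 1 library. A single library per condition and the depth of small classes limit all comparisons between conditions.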
